A study of Homo sapiens with 2 samples.

Results

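The S100 and annexin genes S100A4, S100A6, S100A10, S100A11, S100A16, ANXA1, ANXA2, ANXA4 and ANXA5 were examined in A549 cells, a human lung adenocarcinoma line, with and without induction of epithelial to mesenchymal transition (EMT) by transforming growth factor beta (TGF-beta). The 9 genes were chosen by symbol, and all 9 were found among the 57736 gene entries of the deposited count table. There was 1 library from cells labelled as the TGF-beta-induced EMT model, called the treated library, and 1 library from cells given no treatment. Both came from A549 cells with the genotype given as WT, and the study's design text names an A549 VIM RFP line, that is, one with a red fluorescent protein tied to vimentin. The dose and duration of TGF-beta were not given in the sources used here. Each group had a single library, so the treatment could not be tested, p-values are not given, and the differences below are without a replicate check.

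S100 proteins are small calcium-binding proteins of the EF-hand type that act as dimers, and annexins are proteins that bind acidic phospholipids of membranes when calcium rises. Members of these families pair with each other. S100A10, which does not itself need calcium to take its active shape, holds ANXA2 at the inner face of the plasma membrane, and S100A11 binds the amino-terminal tail of ANXA1. S100A4 is widely used as a marker of motile and mesenchymal cells, and ANXA1, ANXA2, S100A6 and S100A11 are abundant in many epithelial cancers.

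Coding exons that held untreated counts of the partner genes and of S100A4 are shown here because the comparison of partners below refers to them. Most counts of S100A10 in both libraries, and most treated counts of ANXA1, lay outside the exons shown, as given below. Each sequence is coding sequence of GENCODE release 29 transcripts (GRCh38). The exons were matched to the exon entries of the deposited table, which uses hg19, by transcript ID, exon order and exon length. Where a pair of neighbouring exons is shown, the exon with the higher untreated count is in capitals. For ANXA1 these are exons 5 and 6 of ENST00000456643, with coding bases at chr9:73159329-73159423 and chr9:73160263-73160376 on the plus strand. For ANXA2 they are exons 3 and 4 of ENST00000557904, at chr15:60382342-60382441 and chr15:60364429-60364523 on the minus strand. For S100A11 they are the coding bases of exon 2 and the first 60 bases of exon 3 of ENST00000271638, at chr1:152033648-152033800 and chr1:152032764-152032823 on the minus strand. For S100A4 they are the coding bases of exon 2 and the first 60 bases of exon 3 of ENST00000368714, at chr1:153544654-153544794 and chr1:153543864-153543923 on the minus strand. For S100A10 the coding bases of exon 2 of ENST00000368811 are shown, at chr1:151986099-151986230 on the minus strand, with the start codon in capitals.
ANXA1: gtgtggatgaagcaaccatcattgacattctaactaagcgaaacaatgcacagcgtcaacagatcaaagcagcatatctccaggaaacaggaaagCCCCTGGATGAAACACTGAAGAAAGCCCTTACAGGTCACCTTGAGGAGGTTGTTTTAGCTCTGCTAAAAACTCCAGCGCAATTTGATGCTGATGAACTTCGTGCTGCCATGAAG
ANXA2: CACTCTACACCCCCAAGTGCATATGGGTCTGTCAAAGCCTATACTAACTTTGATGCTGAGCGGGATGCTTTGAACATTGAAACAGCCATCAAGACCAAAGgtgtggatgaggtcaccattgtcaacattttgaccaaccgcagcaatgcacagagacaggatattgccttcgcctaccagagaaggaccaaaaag
S100A11: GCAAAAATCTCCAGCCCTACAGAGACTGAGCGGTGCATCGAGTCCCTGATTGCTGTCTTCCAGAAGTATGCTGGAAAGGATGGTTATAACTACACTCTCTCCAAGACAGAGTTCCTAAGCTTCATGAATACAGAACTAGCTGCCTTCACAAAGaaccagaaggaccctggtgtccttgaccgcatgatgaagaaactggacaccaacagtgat
S100A4: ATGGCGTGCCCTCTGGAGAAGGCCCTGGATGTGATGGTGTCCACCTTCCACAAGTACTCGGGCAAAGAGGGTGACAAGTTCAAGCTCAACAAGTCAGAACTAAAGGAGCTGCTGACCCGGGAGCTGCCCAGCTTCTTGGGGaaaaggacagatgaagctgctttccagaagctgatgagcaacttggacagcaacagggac
S100A10: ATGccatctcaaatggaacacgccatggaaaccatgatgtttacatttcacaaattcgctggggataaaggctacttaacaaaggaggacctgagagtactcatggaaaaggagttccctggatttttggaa
The lower-case exons of ANXA1 and ANXA2 are of the same length, 95 bases, and 57 of the 95 positions hold the same base.

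The treated library held 595124 expected counts and the untreated library 673135. Values were rounded, scaled by TMM (trimmed mean of M-values) and expressed as CPM, that is, relative to the scaled total of the library. A single count was worth 1.77 CPM in the treated library and 1.40 CPM in the untreated library. Genes that reached 5 CPM in either library were compared, a difference of at least 2-fold was used as a rule of size, and brackets give exact 95% intervals, which cover counting error only. The kit reads a short amplified segment per gene, so levels are compared between libraries and not between genes.

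By this rule 8 of the 9 genes were lower in the treated library and 0 were higher. Over all 15401 genes that passed the filter, 26.7% were lower and 22.0% higher by the same rule. Of these calls 54.8% were lower, and 65.9% were with DESeq2 size factors, under which 8 of the 9 genes were lower too. The same 8 genes were at least 8-fold lower, against 5.30% of all genes compared and 12.4% of the 5341 genes that reached 20 CPM in either library. These shares are not matched for abundance, and with 0 counts set to a floor of 3, many sparse genes could not reach 8-fold. Of the 9 genes, 6 had at least 100 untreated counts. Among the 570 genes that did, the lower quartile of the log2 ratio was -2.98, just short of 8-fold lower. ANXA1 was barely past 8-fold, and its log2 ratio was -2.94 with upper quartile scaling and -2.98 as log2(CPM + 1), both short of it. ANXA2 was 6.05-fold lower with its near-identical copies added. The median log2 ratio of the 9 genes was -4.09, beside 0.01 over all genes. Together they had 70 counts in the treated library, or 0.0117% of it (0.00914% to 0.0148%), and 1065 counts in the untreated library, or 0.158% (0.148% to 0.168%). The 5 S100 genes summed to 21 counts against 503, which was 19.0-fold lower, and the 4 annexin genes to 49 against 562, which was 9.09-fold lower. Of the annexin counts, 17 treated and 12 untreated for ANXA1, and 10 and 13.3 for ANXA4, lay in long exon entries described below. The sums were not taken without these entries, so they do not show a difference between the families. In RNA from whole cultures, fewer cells that express a gene and less of its RNA per cell cannot be told apart.

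**Figure D1:**
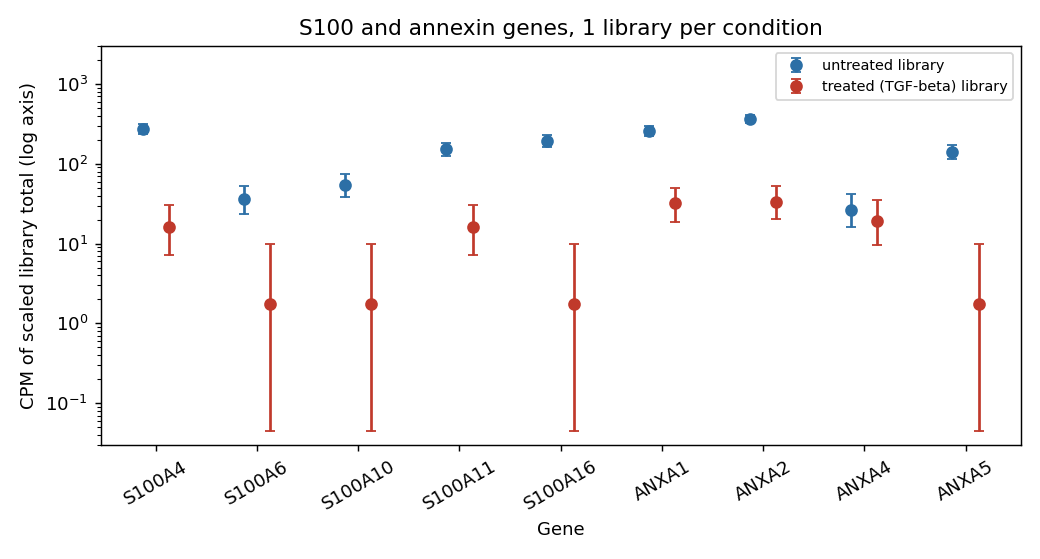
CPM of the 9 genes (log axis) in the untreated library (blue) and the treated library (red), with exact 95% Poisson intervals as bars. The intervals of the 2 libraries are apart for 8 genes and overlap for ANXA4.

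Many other genes that were abundant in the untreated library were lower too. Of 570 genes with at least 100 counts in the untreated library, 42.1% were at least 2-fold lower, with a median log2 ratio of -0.44 and quartiles of -2.98 and 0.22. This set was chosen by untreated counts alone and leaves out genes abundant only in the treated library. The choice favours lower calls, and its share and quartiles carry that bias. Of 27 ribosomal protein genes that passed the filter, from a list of 28, 26 were lower and 1 higher (median -3.37). Of 7 housekeeping genes that passed, from a list of 10, 6 were lower and 0 higher (median -3.43), and GAPDH, a glycolytic enzyme, had 115 counts against 2764 (log2 ratio -4.25). The part of this general difference between the libraries in the values of the S100 and annexin genes was not tested. The sources used here give no RNA integrity, and a difference in RNA or library quality cannot be told apart from the treatment in any ratio printed here.

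S100A4, which binds non-muscle myosin, lies at chr1:153516089-153522612 (hg19, minus strand) and had 9 counts in the treated library and 193 in the untreated library. These correspond to 15.9 CPM (7.28 to 30.2) and 271 CPM (234 to 312). It was 17.0-fold lower, with a log2 ratio of -4.09 (-5.24 to -3.13). Its counts lay in the same 2 exon segments in both libraries, with 45.9% and 54.1% in the treated library and 52.8% and 46.5% in the untreated library. S100A3, whose span lies inside that of S100A4 on the same strand, had 1 count against 13.

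S100A16, a broadly expressed S100 protein, lies in the same cluster at chr1:153579362-153585621 (minus strand) and had 1 count against 137. This was the smallest ratio among the 9 genes, with a log2 ratio of -6.76 (-12.08 to -4.26). In the untreated library 59.0% of its counts lay in an exon segment of 179 bases, where the treated library had 0 counts, and 41.0% in the last segment, which held the single count of the treated library. S100A6, also called calcyclin, at chr1:153507075-153508720 (minus strand), had 1 count against 26 and a log2 ratio of -4.36 (-9.72 to -1.76). With 1 treated count each, both differences have wide intervals, whose upper bounds are still beyond 2-fold lower.

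S100A11, a partner of ANXA1, at chr1:152004982-152020383 (minus strand), had 9 counts against 108, or 15.9 CPM against 151 CPM. It was 9.51-fold lower, with a log2 ratio of -3.25 (-4.42 to -2.27). The counts were divided alike over the coding exons shown above, with 79.1% of the treated counts and 77.7% of the untreated counts in the capital-letter exon. S100A10, the partner of ANXA2, at chr1:151955391-151966866 (minus strand), had 1 count against 39 and a log2 ratio of -4.95 (-10.29 to -2.39). Of the untreated counts of S100A10, 31.7 lay in the 5′-most exon segment, ahead of the start codon, and 7.14 in the exon shown above. The single treated count lay in the 5′-most segment.

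ANXA2, which organises actin and plasminogen activation at the membrane, lies at chr15:60639333-60695082 (hg19, minus strand). It had 19 counts in the treated library and 259 in the untreated library, or 33.6 CPM (20.2 to 52.5) and 363 CPM (320 to 410). It was 10.8-fold lower, with a log2 ratio of -3.43 (-4.19 to -2.76). ANXA5, the phosphatidylserine-binding annexin used to detect dying cells, at chr4:122589110-122618268 (minus strand), had 1 count against 100, and its log2 ratio was -6.31 (-11.63 to -3.80). ANXA1, a glucocorticoid-responsive protein that restrains inflammation, at chr9:75766673-75785309 (plus strand), had 18 counts against 184, or 31.9 CPM (18.9 to 50.3) against 258 CPM (222 to 298). It was 8.10-fold lower, with a log2 ratio of -3.02 (-3.80 to -2.32). ANXA4, an annexin of epithelial membranes, at chr2:69871557-70053596 (plus strand), had 11 counts against 19. Its log2 ratio was -0.45 (-1.67 to 0.69), so that a difference in ANXA4 was not detectable at this depth.

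**Figure D2:**
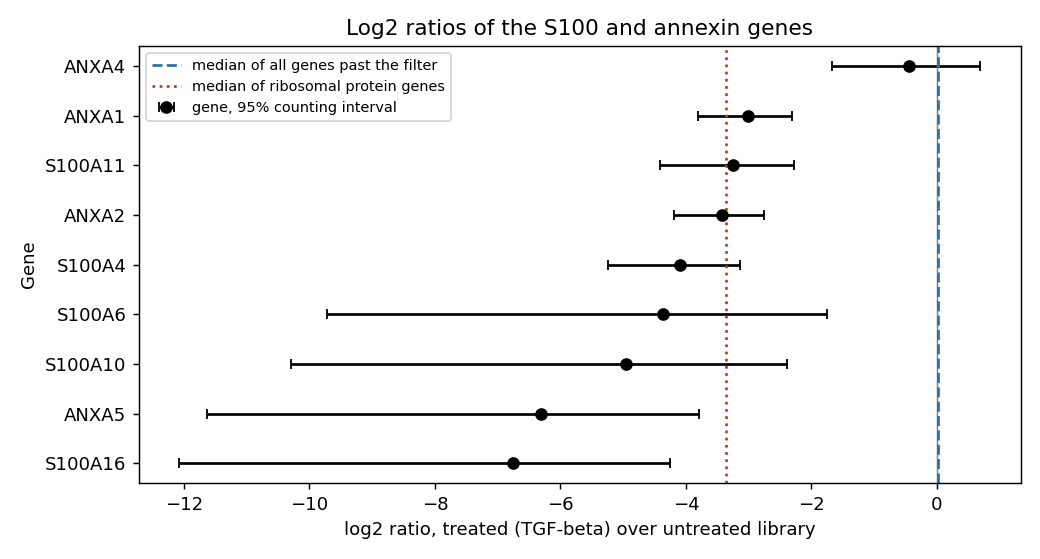
Log2 ratio of the treated library over the untreated library for the 9 genes, with exact 95% counting intervals as bars. The dashed line is the median of all genes past the filter (0.01) and the dotted line that of ribosomal protein genes (-3.37), and ANXA4 is the 1 gene whose interval reaches 0.

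Partner genes were compared by the difference of their log2 ratios, which does not depend on the scaling of the libraries. S100A10 minus ANXA2 was -1.52, with an exact conditional 95% interval of -6.93 to 1.22. The counts of S100A10 were 0.0526 of those of ANXA2 in the treated library and 0.151 in the untreated library. S100A11 minus ANXA1 was -0.23 (-1.62 to 1.06), with 0.50 counts of S100A11 per count of ANXA1 in the treated library and 0.587 in the untreated library. By gene totals, a difference between the partners was detectable at this depth for neither pair, and for S100A10 with its single treated count the interval is wide. Without 1 long exon entry of ANXA1, described below, S100A11 minus ANXA1 was 3.84 (0.94 to 9.30), an interval that leaves out 0.

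Of other S100 and annexin pairs, S100A11 minus ANXA2 was 0.18 (-1.19 to 1.45), S100A4 minus ANXA2 was -0.65 (-2.01 to 0.60) and S100A6 minus ANXA2 was -0.93 (-6.36 to 1.84). S100A11 minus ANXA5 was 3.06 (0.15 to 8.53), so the log2 ratio of ANXA5 was lower than that of S100A11 by more than counting error. This rests on a single treated count of ANXA5. Of all 36 pairs of the 9 genes, 14 had an interval that left out 0. These were all 8 pairs with ANXA4, and 6 pairs that set S100A16 or ANXA5 against S100A11, ANXA1 or ANXA2. The pairs use gene totals, and 97.1% (ANXA1) and 95.2% (ANXA4) of the treated counts lay in long exon entries described below. Outside these entries the log2 ratio was -7.09 (-12.40 to -4.59) for ANXA1 and -2.25 (-7.77 to 0.79) for ANXA4. Apart from S100A11 minus ANXA1, the pairs with these genes were not tested without the entries. The intervals are not adjusted for the number of pairs.

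**Figure D3:**
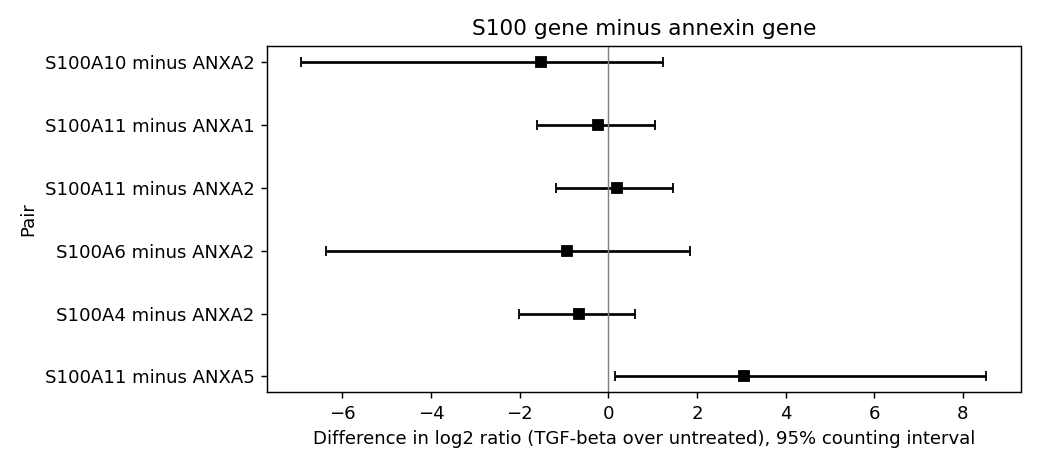
Difference in log2 ratio between an S100 gene and an annexin gene for 6 pairs, with exact conditional 95% intervals as bars. The intervals of 5 pairs hold 0, and that of S100A11 minus ANXA5 does not.

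The exon entries of the table showed that the counts of ANXA1 lay in different places in the 2 libraries. Of the 184.3 untreated expected counts, 172.3 lay in the exons shown above, with 31.2 in the lower-case exon and 141.2 in the capital-letter exon. In the treated library these exons held 0.50 of 17.5 expected counts. The other 17 counts, or 97.1% of the gene, were in 1 entry of 948 bases (hg19 chr9:75772570-75773517), the 5′ exon of the transcript ENST00000376911. Of its bases, 868 are not exonic in any other ANXA1 transcript of the table. The untreated library had 12 counts in this entry, and its log2 ratio was 0.84 (-0.31 to 2.04). Without it ANXA1 had 1 rounded count against 172, a log2 ratio of -7.09 (-12.40 to -4.59). On these exons S100A11 minus ANXA1 was 3.84 (0.94 to 9.30) in place of -0.23. That no difference between these partners was detectable by gene totals therefore rests on the counts of that 1 entry.

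Such a shift was rare. For each of 1016 genes with at least 50 untreated and 5 treated counts, the exon segments that together hold at least 90% of the untreated counts were taken. These segments held a median of 98.2% of the gene's treated counts (lower quartile 91.7%), and under 10% in 11 genes (1.08%). ANXA1 was at 2.86%, ANXA2 at 82.0%, and S100A4 and S100A11 had all of their treated counts there.

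ANXA4 had most of its counts in a long entry in both libraries. An exon of 2768 bases (hg19 chr2:70035038-70037805) of a non-coding transcript, ENST00000477632, held 10 of 10.5 counts in the treated library and 13.3 of 18.8 in the untreated library. Of its bases, 2404 are not exonic in any other ANXA4 transcript of the table. Its log2 ratio was -0.04 (-1.39 to 1.26). The rest of the gene had 0.50 against 5.55 expected counts, and the log2 ratio was -2.25 (-7.77 to 0.79). For the long entries of ANXA1 and ANXA4 a difference between the libraries was thus not detectable, and both intervals are too wide to show likeness. The part of unspliced or genomic sequence in these entries was not tested.

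**Figure D4:**
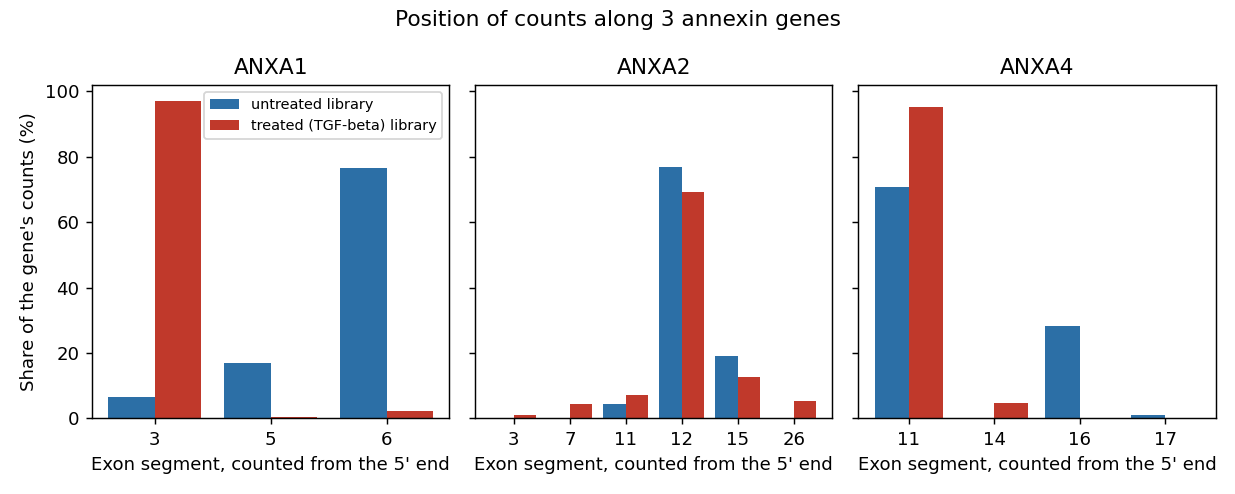
Share of the expected counts of ANXA1, ANXA2 and ANXA4 (percent of the gene) in each exon segment with counts, numbered from the 5′ end, in the untreated library (blue) and the treated library (red). ANXA1 had 97.1% of its treated counts in segment 3, which held 6.51% of its untreated counts.

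ANXA2 has near-identical copies without introns, and reads may be divided between them and the gene. ANXA2P1 had 1 expected count in the treated library and 4 in the untreated library, ANXA2P2 had 4 and 12.7, and ANXA2P3 had 12 and 0.25. The 3 copies together had 17 against 16.9 expected counts, with a log2 ratio of 0.34 (-0.72 to 1.40). ANXA2 minus its copies was -3.77 (-5.06 to -2.46). With the copies added, ANXA2 had 36 counts against 275 and was 6.05-fold lower (log2 ratio -2.60, -3.14 to -2.09). The S100A11 copies S100A11P1 and S100A11P2 were listed at 0 in both libraries.

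Other members of the families were sparse. Of a list of 18 further S100 genes and S100-binding proteins, 6 passed the filter, of which 3 were lower and 1 higher. Their median log2 ratio was -1.11, which turned to 0.13 with the filter at 1 CPM. S100A2, a p53-responsive S100 gene, had 3 counts against 23 (-2.60, -4.98 to -0.88). S100A3 had a log2 ratio of -3.36 (-8.77 to -0.63), and CACYBP, the calcyclin-binding protein that is a partner of S100A6, had 8 counts against 32 (-1.66, -2.99 to -0.52). S100A8, a subunit of the neutrophil protein calprotectin, had 14 counts against 26 (-0.56, -1.61 to 0.43). S100A7A had 4 counts against 2, S100A1 had 0 against 4, and the intervals of both held 0. S100A12, S100B, S100P and S100A7L2 were at 0 in both libraries, where a count of 0 allows up to 3 counts, or 5.31 CPM in the treated library and 4.21 CPM in the untreated library.

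Of 10 further annexin genes 4 passed the filter, of which 1 was lower and 2 higher. Their median log2 ratio was 0.99, which turned to -2.24 with the filter at 20 CPM. ANXA11, an annexin that tethers RNA granules to lysosomes, had 11 counts against 2 (2.80, 0.60 to 6.01). ANXA9 had 7 counts against 2 (2.14, -0.25 to 5.45), and ANXA7 had 12 against 17 (-0.17, -1.37 to 0.98). ANXA8L2 had 1 count against 25 (-4.31, -9.67 to -1.70), but it shares near-identical sequence with ANXA8 and ANXA8L1, between which its reads could be divided. ANXA3, ANXA6, ANXA8, ANXA8L1, ANXA10 and ANXA13 did not pass the filter.

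**Figure D5:**
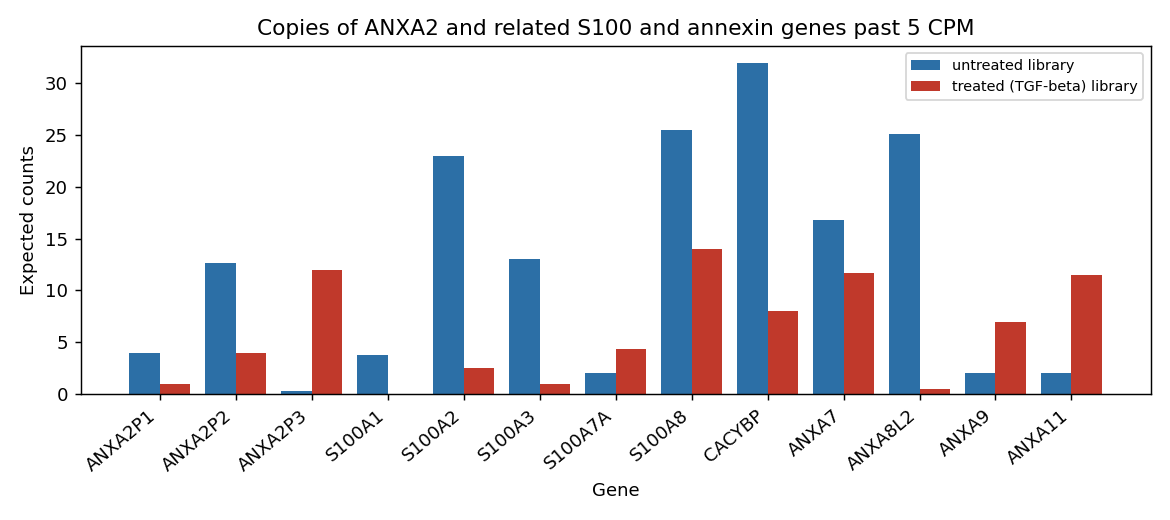
Expected counts of the 3 ANXA2 copies and of the other S100, S100-binding and annexin genes that passed the filter, in the untreated library (blue) and the treated library (red). ANXA2P3, S100A7A, ANXA9 and ANXA11 have the higher bar in the treated library.

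The genes that work with these proteins were counted from lists, and these counts stand beside the 26.7% of all genes that were lower and the 22.0% that were higher. In the plasmin system, which the S100A10 and ANXA2 complex serves by binding plasminogen and its activator, 5 of 6 genes that passed were lower and 0 higher (median log2 ratio -2.04). The urokinase receptor gene PLAUR had 12 against 114 (-2.91, -3.91 to -2.05). Of 19 expressed genes from a list of S100 and annexin binding partners and proteins of the cell cortex, 11 were lower and 1 higher (median -1.66). Ezrin, EZR, which links membrane to actin, had 5 counts against 194 (-4.94, -6.58 to -3.69). MYH9, the heavy chain of the myosin that S100A4 binds, had 45 against 44 (0.37, -0.26 to 1.0), named here after its values were seen. Among receptors for S100 proteins and annexins, 2 of 5 were lower and 0 higher (median -0.66). BSG, a receptor of S100A9, had 52 against 154 (-1.23, -1.71 to -0.77), and the ANXA1 receptor genes FPR1 and FPR2 were at 0 in both libraries.

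Of 22 other EF-hand genes that passed, 16 were lower and 1 higher (median log2 ratio -1.83). MYL12B, a myosin regulatory light chain, had 3 counts against 107 (-4.82, -7.12 to -3.23), and CALM2, a calmodulin gene, had 5 against 108 (-4.10, -5.75 to -2.83). Membrane repair genes were mixed, with 7 of 16 lower and 3 higher and a median of -0.81. PTRF, a caveolar coat protein also called cavin-1, had 23 counts against 316 (-3.44, -4.12 to -2.83), while CAPN2, a calcium-activated protease, had 639 against 114 (2.82, 2.53 to 3.12). Of the 5 genes whose log2 ratio was closest to the median of the 9 genes, among those with at least 100 untreated counts and over these 2 libraries alone, CALM2 was the nearest, followed by SNRPB (-4.06), TRIM28 (-4.16), HIST1H3C (-4.16) and PPIB (-4.16).

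Marker lists did not point to 1 direction. Of 9 expressed epithelial markers 4 were lower and 2 higher (median 0.16, summed CPM 225 in the treated library and 471 in the untreated library). Among the lower ones KRT7 had 32 counts against 179. The 2 higher were CDH1 (4 counts against 1) and EPCAM (7 against 4), with intervals that held 0. The median of the epithelial list was negative with total count or DESeq2 scaling. Of 7 expressed mesenchymal markers 2 were lower and 1 higher (median -0.66, summed CPM 777 against 984). VIM was lower, at 56 counts against 452, and COL1A1 was the higher one. Of 6 fibroblast markers 0 were lower and 2 higher (median 0.44, 742 against 380 CPM), with LUM and FAP at 0. The 2 higher were PDGFRA, at 3 counts against 1, and COL1A1, at 356 against 196. COL1A1 is in both lists and made up most of both treated sums, at 630 CPM against 275. For leukocyte markers the numbers lower and higher were 2 and 1 of 6 (median -0.77, 47.8 against 92.6 CPM), with LYZ, S100A12 and CD79A at 0 rounded counts. For alveolar markers they were 0 and 1 of 4 (median -0.57, 40.7 against 37.9 CPM), with the surfactant gene SFTPC at 2 counts in each library and NKX2-1, a transcription factor of lung epithelium, at 4 against 8. Their part in the S100 and annexin values was not tested.

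Promoters of the partners S100A10 and ANXA2 are shown because the 2 genes were low together. The sequences are from RefSeq (GRCh38.p14), the 250 bases before the start of transcription on the minus strand, at chr1:151993860-151994109 for S100A10 and chr15:60397987-60398236 for ANXA2. Capitals mark matches, on either strand, to 4 motifs, which were searched from 250 bases before to 50 after each start. They were TGANTCA, the site of AP-1 factors, the TATA box as TATAAA, the GC box as GGGCGG, and an E-box with the letters CAGGTG.
S100A10: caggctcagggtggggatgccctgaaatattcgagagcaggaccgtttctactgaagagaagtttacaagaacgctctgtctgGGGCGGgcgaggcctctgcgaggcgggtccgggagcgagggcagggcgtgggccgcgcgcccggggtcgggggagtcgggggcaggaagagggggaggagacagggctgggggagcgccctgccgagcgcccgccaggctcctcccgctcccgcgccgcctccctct
ANXA2: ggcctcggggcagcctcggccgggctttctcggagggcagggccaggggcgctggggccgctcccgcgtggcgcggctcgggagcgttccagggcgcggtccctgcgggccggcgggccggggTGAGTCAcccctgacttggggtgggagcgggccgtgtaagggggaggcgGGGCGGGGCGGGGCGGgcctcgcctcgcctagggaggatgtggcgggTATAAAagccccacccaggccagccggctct
All 9 genes matched the promoter table, with 11 promoters between them. TGANTCA was in 1 of the 11, that of ANXA2, 127 bases before the start, and in 7.71% of all 35116 promoters. TATAAA was in 3 (S100A4, ANXA1 and ANXA2), each time 31 bases before the start, against 11.5% of all promoters. GGGCGG was in 8 of the 11, S100A10 and S100A11 included, against 45.0% of all, and CAGGTG in 4 (S100A4, both of S100A16 and 1 of ANXA4) against 20.6%. S100A10 and ANXA2 shared GGGCGG alone among these 4 motifs, and a match is a description of sequence, not evidence of binding.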

How the data were processed

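Total RNA (10 ng per library) entered the AmpliSeq Transcriptome kit, per the labels' protocols, and the authors deposited expected counts (estimated counts, not normalized) per gene, with shares per transcript and counts divided over exons. Of tools and builds, the submitters' processing notes list DESeq and hg19. No aligner, counting program or strand setting is given in the sources used here. Overlapping genes may therefore share reads across strands. Gene entries were rounded to whole numbers (totals 597133 and 674784) and scaled by TMM (factors 0.946 and 1.06) in edgeR 4.0.16 under R 4.3.3. Log2 ratios have no pseudocount. A count of 0 was set to a floor of 3 counts. No ratio is printed for a gene with 3 counts or fewer in both libraries, but such genes past the filter enter the calls, shares and medians. A gene with 3 counts passed the filter in the treated library (5.31 CPM) but not in the untreated library (4.21 CPM). Ratio intervals are exact 95% Clopper-Pearson intervals that take the sum of both counts as fixed, and pair intervals are exact conditional intervals of the odds ratio. Amplified reads carry no molecular identifiers here, and neither intervals nor floors hold any error beyond counting. The 2-fold rule and both kinds of interval were run on counts simulated with counting error alone and scaled by library totals. The intervals assume the same kind of error, so this checks the code and not the error in these libraries. Named were the 9 genes, all further S100 and annexin genes at 5 CPM, up to 4 genes per other list at 20 CPM with the largest differences, of which some are given, and the 5 genes nearest in ratio. Genes at 0 or under the filter, and markers, were named to describe a list. The genes and lists were chosen with earlier results of these data known. Alternatives were other scalings (DESeq2 1.42.0, total counts, upper quartile), filters, a pseudocount of 1, unrounded counts and exon subsets.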

Additional observations from a re-analysis of the deposited data

How the results depend on the processing

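The count of 8 of 9 genes at least 2-fold lower was 8 under each of the 7 other scalings, filters and the pseudocount. The filters could not change it, because all 9 genes had at least 26.6 CPM in the untreated library. The shifts between scalings, given below, were too small to move any of the 9 genes across 2-fold. The constant count is therefore no check on the result. The median log2 ratio of the 9 genes ranged from -4.31 to -3.76. Against TMM, log2 ratios shifted by -0.22 with DESeq2 size factors, -0.16 with total counts and 0.08 with upper quartile scaling. The count of all genes at least 2-fold lower was 7430 at 1 CPM and also with no filter beyond 1 count, and 1921 at 20 CPM, against 4111. Of all calls, 54.8% were lower with TMM (4111 lower, 3391 higher) and 65.9% with DESeq2 size factors (4753 lower, 2463 higher). The log2 ratio of ANXA1 was -5.22 with its fullest exon entry alone, where 0 counts were set to the floor, and -7.09 with its main exon segments alone. With the main segments S100A11 minus ANXA1 was 3.84. The main segments were chosen after seeing the data. Of 63 other values for single genes 61 stayed within the counting interval, as did 23 of 24 for pairs. Staying inside a wide interval says little about stability. S100A16 went from -6.76 to -4.42 with its fullest exon entry alone and was still inside its interval of -12.08 to -4.26. Adding the ANXA2 copies moved S100A10 minus ANXA2 to -2.35 and turned S100A11 minus ANXA2 to -0.65, both inside their intervals. Medians of other lists that changed sign were those of epithelial markers (-0.0042 with total counts, -0.064 with DESeq2 size factors, -1.39 at 20 CPM), further S100 genes (0.13 at 1 CPM and with no filter beyond 1 count) and further annexins (-2.24 at 20 CPM). No paired analysis was possible because each group had 1 library. With 1 count in the treated library, S100A6, S100A10, S100A16 and ANXA5 have differences whose size depth leaves wide.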
